A study of Mus musculus with 22 samples.

Results

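Lamina-associated domains (LADs) mapped in mouse embryonic fibroblasts (MEFs) treated with BIX01294 were compared with those of untreated MEFs, which are labelled WT. The comparison used every deposited LAD list that carries one of these names, which gave 2 BIX01294 lists (pups 1.8 and x17) and 3 WT lists (pups 1.5, 1.8 and x17) among the 11 lists of the series. Each list was made from a pair of DamID libraries, an experiment and a control, so 10 of the 22 sequenced samples stand behind the 5 lists. The other lists belong to MEFs given DZNep or TSA or depleted of lamin A/C.

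All cells were primary C57bl/6 MEFs taken at e13.5 and grown for at most 5 passages. BIX01294 was given for 18 to 24 h, the DamID virus was then added, and cells were collected at 60 h, counted from a step that the labels do not state. The WT cells received no drug. Neither a dose nor a solvent control is named, so the drug and its vehicle cannot be told apart. The same pup name appears in both groups for pups 1.8 and x17, which gave 2 same-pup comparisons, whereas WT pup 1.5 had no treated partner. The labels call pups 1.5 and 1.8 replicate 1 and pup x17 replicate 2. Pup and replicate therefore cannot be told apart in the same-pup comparisons. A pup is an embryo here, and the virus-infected culture is a mixed population, so each list is an average over many cells. The lists hold positions alone, and the cell type and the effect of the drug on H3K9me2 could not be checked from them.

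LADs are long stretches of mostly silent chromatin that lie against the nuclear lamina, the protein mesh under the inner nuclear membrane. DamID marks them in living cells with a bacterial adenine methyltransferase fused to lamin B1, and a free methyltransferase serves as the control for open chromatin. The labels name the libraries only experiment and control. That these are the fusion and the free enzyme was taken from the methods of a paper that cites this series among other datasets. BIX01294 inhibits G9a and GLP, the enzymes that place dimethylation on lysine 9 of histone H3 (H3K9me2), a mark that is enriched in LADs and at their borders and that has been linked to the tethering of LADs at the nuclear periphery. The comparison asks where LAD calls differ between cells with and without the inhibitor.

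Before comparison, intervals less than 25 kb apart were joined and LADs longer than 100 kb were kept on chromosomes 1 to 19. The deposited lists held 4485 intervals in WT pup 1.5, 7306 in WT pup 1.8, 8917 in WT pup x17, 6987 in BIX01294 pup 1.8 and 8883 in BIX01294 pup x17. The number was closer between lists of the same pup than between lists of the same group, and WT pup 1.5 stood apart with the fewest and longest intervals (median 86.5 kb, against 31.7 to 59.0 kb in the other 4). Values without that list are given beside many of the results. The lists hold no scores or read numbers, so the depth behind each call is unknown. Group differences were tested by exact permutation of the 5 lists over 10 arrangements, a design in which p cannot go below 0.1, and p-values were adjusted over 9 results (Benjamini-Hochberg). They measure only the spread between these lists.

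Most LAD length was shared between BIX01294-treated and untreated cells, and treated and untreated lists were on average about as alike as untreated lists were among themselves. Shared length divided by total length covered (the Jaccard index) was 0.892 between the WT and BIX01294 lists of pup 1.8 and 0.882 for pup x17. The 4 comparisons of a WT with a BIX01294 list from different pups gave 0.846 to 0.880, and the 3 comparisons among WT lists gave 0.855 to 0.858. The highest similarity was therefore found between the treated and untreated cells of one pup, although the treated pair of different pups also reached 0.879. Of the length in WT LADs, 95.3% ± 1.58 (SD over 6 pairs of lists, which share lists) was also in a BIX01294 LAD. In the other direction, 90.9% ± 2.85 of the BIX01294 length was in a WT LAD.

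The number of LADs was 1849 in WT pup 1.5, 2187 in WT pup 1.8 and 2016 in WT pup x17. It was 2154 in BIX01294 pup 1.8 and 2139 in BIX01294 pup x17. The treated lists fell inside the WT range, between pups 1.8 and x17. The mean was 2146.5 ± 10.6 (SD, n = 2) with BIX01294 and 2017 ± 169 (SD, n = 3) in WT, a difference of 129 LADs (exact permutation test, two-sided p = 0.4, adjusted p = 0.6). Within pup 1.8 the treated list had 33 fewer LADs and within pup x17 it had 123 more, a paired mean of 45. Leaving out WT pup 1.5 also gave 45, and leaving out WT pup 1.8 gave 214.

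Total LAD length was 1377 Mb in WT pup 1.5, 1507 Mb in WT pup 1.8 and 1429 Mb in WT pup x17, and 1481 and 1536 Mb in BIX01294 pups 1.8 and x17. BIX01294 pup x17 was the highest of the 5 lists, while BIX01294 pup 1.8 lay below WT pup 1.8, so the groups overlapped. LADs covered 62.5% ± 1.62 (SD, n = 2) of the 2414 Mb between the first and last called bases of each autosome with BIX01294 and 59.5% ± 2.72 (SD, n = 3) in WT. The difference in length was 70.6 Mb (exact permutation test, two-sided p = 0.3, adjusted p = 0.6). Within pup 1.8 the treated list was 26.5 Mb shorter and within pup x17 it was 107 Mb longer, a paired mean of 40.2 Mb. Without WT pup 1.5 the difference was 40.2 Mb, and without BIX01294 pup x17 it was 43.0 Mb.

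**Figure D1:**
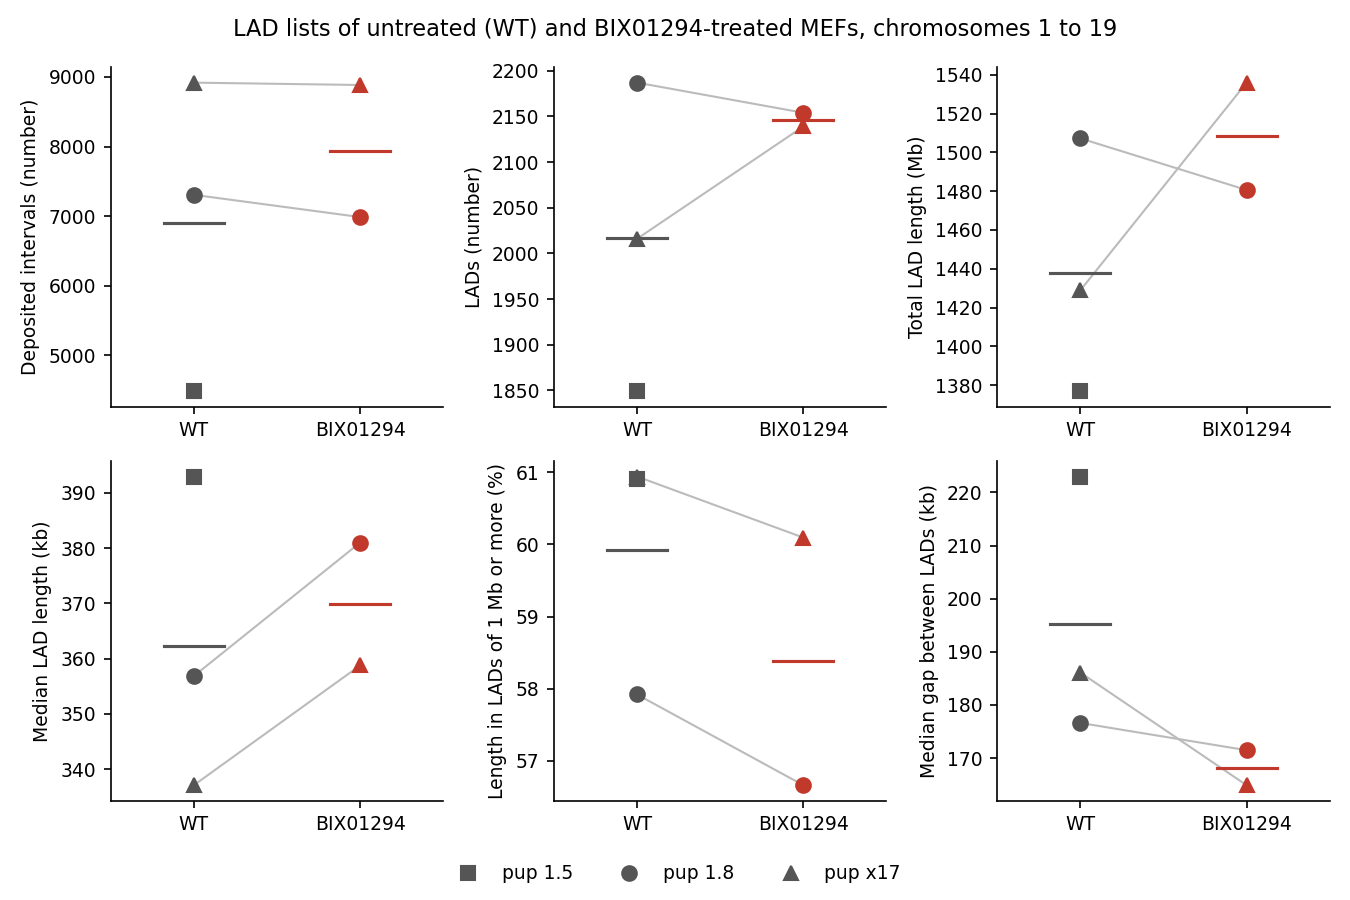
Values of each list on chromosomes 1 to 19, by group, with 1 point per list, the marker giving the pup, short bars for group means and grey lines joining lists of the same pup. The vertical axes do not start at 0. Only the median gap between LADs separates the groups, with the BIX01294 lists at 171 and 165 kb below all 3 WT lists.

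The size of single LADs did not separate the groups. Median LAD length was 393 kb in WT pup 1.5, 357 kb in WT pup 1.8, 337 kb in WT pup x17, 381 kb in BIX01294 pup 1.8 and 359 kb in BIX01294 pup x17. The treated lists lay within the WT range, and the difference was 7.59 kb (exact permutation test, two-sided p = 0.8, adjusted p = 0.9). It was 22.9 kb without WT pup 1.5 and turned to −5.02 kb without WT pup x17, to −3.53 kb without BIX01294 pup 1.8, to −9.13 kb with the lists as deposited and to −44.5 kb with a minimum length of 500 kb (exact permutation p = 0.1). Within a pup the treated median was longer each time, by 24.2 kb in pup 1.8 and by 21.7 kb in pup x17, a paired mean of 22.9 kb. Pieces of 100 kb or less, which are not counted as LADs, were fewer with BIX01294 in both pups. After joining they numbered 2373 with BIX01294 against 2550 in WT for pup 1.8, and 3062 against 3403 for pup x17. The shortest LADs, of 100 to 250 kb, numbered 756 against 791 for pup 1.8 and 804 against 789 for pup x17. The untreated list of pup 1.5 had only 1462 pieces of 100 kb or less, so the same order was not seen across all lists. With 2 pairs, a sign-flip test cannot give p below 0.5, and the within-pup order is given as a description.

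By length class, LADs of 500 to 1000 kb numbered 471 in BIX01294 pup 1.8 and 431 in BIX01294 pup x17, above the 377, 424 and 369 of WT pups 1.5, 1.8 and x17. As a share of all LADs this class made up 21.9% and 20.1% of the treated lists and 20.4%, 19.4% and 18.3% of the WT lists, so the groups overlapped once the total number was taken into account. LADs of 100 to 250 kb numbered 756 and 804 with BIX01294 and 601 to 791 in WT, and those of 250 to 500 kb numbered 522 and 490 with BIX01294 and 477 to 561 in WT. LADs of 1 Mb or more numbered 405 and 414 with BIX01294 and 381 to 411 in WT. The share of LAD length in these longest LADs was 56.7% and 60.1% in BIX01294 pups 1.8 and x17, against 60.9%, 57.9% and 60.9% in WT pups 1.5, 1.8 and x17. The difference was −1.55 percentage points (exact permutation test, two-sided p = 0.5, adjusted p = 0.643), and the within-pup differences were −1.26 and −0.847 percentage points. It moved to −3.26 without BIX01294 pup x17 and turned to 0.171 without BIX01294 pup 1.8 and to 0.451 with joining under 50 kb.

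Of the per-list results tested, the gap between neighbouring LADs was the one in which the groups did not overlap. The median gap was 223 kb in WT pup 1.5, 177 kb in WT pup 1.8 and 186 kb in WT pup x17, and 171 and 165 kb in BIX01294 pups 1.8 and x17. Both treated lists lay below all 3 WT lists, but BIX01294 pup 1.8 and WT pup 1.8 were only 5.13 kb apart. The difference was −27.1 kb (exact permutation test, two-sided p = 0.2, adjusted p = 0.6). Within pups it was −5.13 kb in pup 1.8 and −21.2 kb in pup x17, with a paired mean of −13.2 kb, the same value as without WT pup 1.5. Gaps of 1 Mb or more numbered 244 and 225 with BIX01294 and 284, 234 and 274 in WT, which overlapped.

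Merging of neighbouring LADs was read from gaps of one list that lay wholly inside a single LAD of another. Of WT gaps, 15.7% ± 2.24 (SD over 6 pairs of lists, which share lists) were closed in a BIX01294 list, and of BIX01294 gaps, 12.6% ± 2.25 were closed in a WT list. Between WT lists the share was 14.3% ± 1.62, which lay between those values. The net excess of merging with BIX01294 was 3.17 percentage points (exact permutation test, two-sided p = 0.4, adjusted p = 0.6).

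The same-pup comparisons went in opposite directions. In pup 1.8, 258 of 2168 WT gaps (11.9%) were closed with BIX01294 and 311 of 2135 BIX01294 gaps (14.6%) were closed in WT, a net value of −2.67 percentage points. In pup x17, 336 of 1997 WT gaps (16.8%) were closed with BIX01294 and 192 of 2120 BIX01294 gaps (9.06%) were closed in WT, a net value of 7.77 percentage points. The paired mean was 2.55 percentage points, and without BIX01294 pup x17 the net value turned to −0.171.

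Closure varied with the length of the gap far more than with the kind of pair compared. BIX01294 LADs closed 50.05% ± 6.57 of WT gaps of 25 to 50 kb, 23.6% ± 5.89 of those of 50 to 100 kb, 8.81% ± 4.17 of those of 100 to 250 kb and 0.826% ± 0.572 of those of 250 to 1000 kb (SD over 6 pairs). The same classes between WT lists gave 44.9% ± 5.43, 22.0% ± 5.29, 8.05% ± 2.79 and 0.991% ± 0.328. No gap of 1 Mb or more was closed in any of the pairs of a WT with a BIX01294 list or of 2 WT lists.

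**Figure D2:**
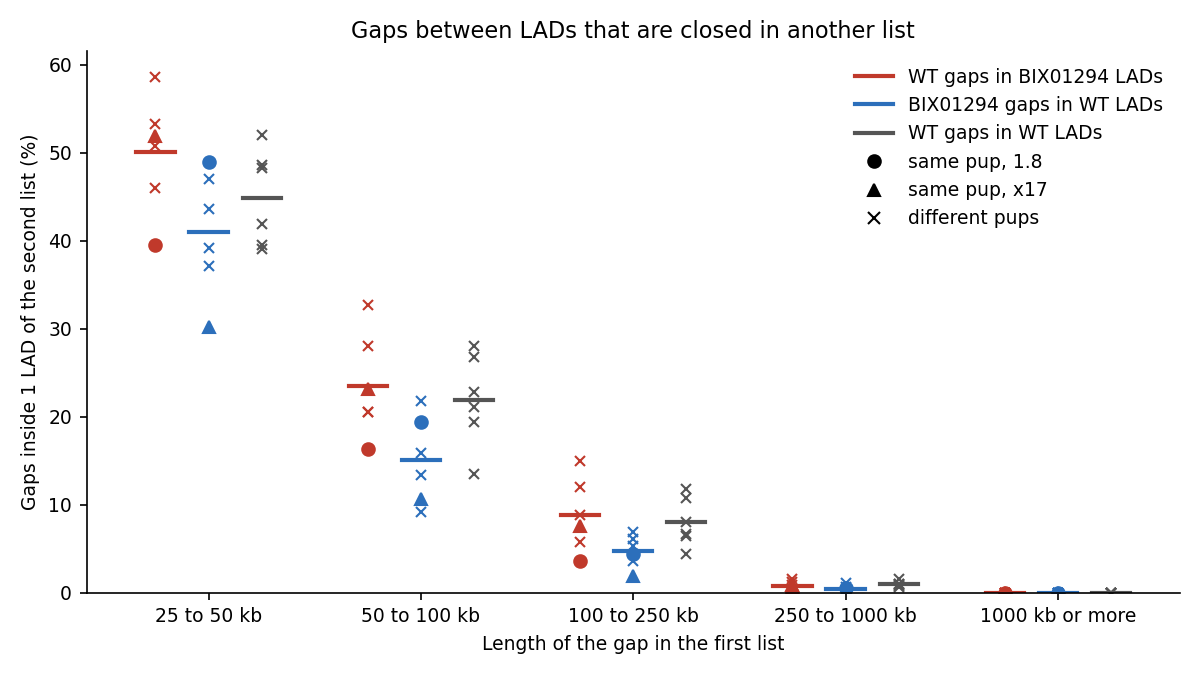
Share of gaps between LADs (vertical axis, percent) that lay wholly inside 1 LAD of a second list, by the gap's length in the first list (horizontal axis). Each point is a pair of lists, bars are means over 6 pairs, and colours give the direction of the comparison. Closure dropped from 50.05% of WT gaps of 25 to 50 kb to 0.826% of those of 250 to 1000 kb in BIX01294 lists, and the pairs among WT lists covered much the same range.

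Places where the lists agreed by group were then counted. A stretch outside the LADs of all 3 WT lists and flanked by them was found 1881 times, and 42 of these (2.23%) lay within a single LAD in both BIX01294 lists. In the opposite direction, 22 of 1989 gaps shared by both BIX01294 lists (1.11%) lay within a single LAD of every WT list. A shared stretch can be shorter than the gap of a single list. At 20 of the 42 closed stretches the whole gap of each WT list lay within the BIX01294 LADs, and at 14 of the 22 opened ones the whole gap of each BIX01294 list lay within the WT LADs. Without WT pup 1.5 the counts were 67 of 1995 closed and 35 of 1989 opened. Of the 42 closed gaps, 38 were among the 377 WT gaps shorter than 50 kb (10.1% of these), and 21 of the 22 opened gaps were among the 426 BIX01294 gaps of that length (4.93%). Blocks longer than 100 kb covered by LADs in all 3 WT lists numbered 2015. Both BIX01294 lists split 20 of them (0.993%) into pieces and lacked 3 (0.149%). Without WT pup 1.5, 33 of 2123 were split and 16 were absent. Of the 20 split blocks, 14 were among the 328 blocks of 1 Mb or longer (4.27% of these), and all 3 absent blocks were among the 783 shorter than 250 kb (0.383%).

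The longest closed gap was chr3:123353445-123471375 in mm9 (118 kb), where the WT LAD on its right was 2461 to 2501 kb long and the LAD across the gap was 2739 kb in BIX01294 pup 1.8 and 2860 kb in BIX01294 pup x17. Before joining, deposited intervals covered 64.1% and 86.3% of this gap in the treated lists and 21.5%, 21.0% and 0% in WT pups 1.5, 1.8 and x17, so the gap was also partly filled in 2 of the 3 WT lists. The next longest was chr18:13543743-13657477 (114 kb), where deposited intervals covered 85.0% and 83.5% with BIX01294 and at most 16.5% in WT. Here the whole gap was 114 kb in WT pup 1.8 but 792 and 816 kb in WT pups 1.5 and x17, and the BIX01294 LADs over the stretch were 464 and 587 kb long, so the gap was closed against WT pup 1.8 alone and not against the other 2 WT lists. The third was chr8:117064879-117177233 (112 kb), covered to 100% and 87.1% with BIX01294 and to 0%, 0% and 23.9% in WT. The flanking LADs were 349 to 460 kb on the left and 413 to 1035 kb on the right in the WT lists, and the single LAD across the gap was 1446 kb in BIX01294 pup 1.8 and 1632 kb in BIX01294 pup x17.

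The longest opened stretches were shorter than the longest closed ones, but the whole gaps of single lists overlapped in length. They were 47.6 to 120 kb at the 3 longest opened stretches in the BIX01294 lists and 114 to 816 kb at the 3 longest closed stretches in the WT lists. At chr12:18616054-18677592 (61.5 kb), WT LADs of 2255 to 3270 kb were interrupted in both treated lists. At chr18:51271057-51316163 (45.1 kb) and chr8:31634127-31674899 (40.8 kb) a WT LAD was broken in the same way. None of these 3 gaps held a deposited interval in a BIX01294 list, whereas deposited intervals filled at least 96.3%, 46.2% and 67.0% of them in the WT lists. With DZNep, LADs of pups 1.8 and x17 covered 100% and 100% of the gap on chromosome 12, 100% and 100% of that on chromosome 18 and 0% and 11.8% of that on chromosome 8. With TSA they covered 100% and 0%, 0% and 100%, and 100% and 100%. The gap on chromosome 8 was thus mostly open with DZNep as well. Genes at these places were not analysed, because the gene annotation at hand is of another genome build than mm9.

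Edges of LADs were compared where a LAD overlapped exactly 1 LAD of the other list and the reverse also held. Over the 6 pairs of a WT with a BIX01294 list, 21.4% ± 5.35 of edges lay more than 25 kb further out in the treated list and 11.9% ± 3.21 lay more than 25 kb further in, while 66.7% ± 3.63 lay within 25 kb. The net outward share was 9.53 percentage points (exact permutation test, two-sided p = 0.3, adjusted p = 0.6), and the median shift was 1.97 kb. Pairs of WT lists had 64.3% ± 0.0794 of edges within 25 kb, and their net share, which has no direction of its own, reached 17.7 percentage points between pups 1.5 and 1.8. All pairs of WT lists were of different pups. For a WT with a BIX01294 list, 70.1% (pup 1.8) and 70.5% (pup x17) of edges lay within 25 kb in the same pup. Between different pups the share was 60.8% to 68.0%. The edges of treated and untreated lists of different pups were thus about as close as those of untreated pups.

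In pup 1.8, 13.8% of 2656 edges lay further out and 16.2% further in with BIX01294, a net of −2.37 percentage points. In pup x17, 22.3% of 2494 edges lay further out and 7.22% further in, a net of 15.1 percentage points. The paired mean was 6.35 percentage points, without WT pup 1.5 the net share was 6.12, and without BIX01294 pup x17 it was 6.25. The sign in each pup was that of the total LAD length.

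**Figure D3:**
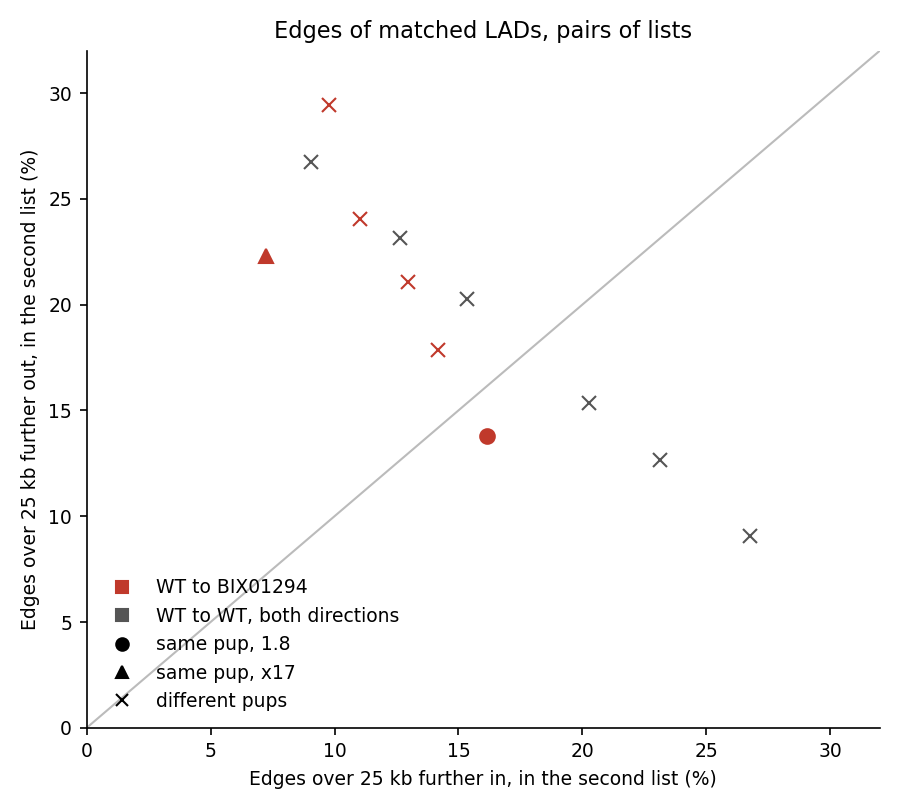
Share of edges of matched LADs that lay more than 25 kb further out (vertical axis, percent) against further in (horizontal axis, percent) in the second list of a pair. Red marks are WT to BIX01294 pairs, grey marks are WT to WT pairs drawn in both directions, and the grey line marks equal shares. The circle of pup 1.8 lies below the line (13.8% out, 16.2% in) and the triangle of pup x17 above it (22.3% out, 7.22% in).

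By length of the WT LAD, the net outward share over the 6 pairs was 14.5 percentage points ± 8.08 for LADs of 100 to 250 kb, 6.59 ± 8.15 for 250 to 500 kb, 5.43 ± 9.45 for 500 to 1000 kb and 8.40 ± 9.56 for 1 Mb or more (SD over pairs). Over the 4 pairs without WT pup 1.5 these were 11.3 ± 8.32, 4.06 ± 8.58, 1.30 ± 7.27 and 3.48 ± 6.87. Between WT lists the same classes gave 9.997 ± 11.1, −6.34 ± 14.1, −6.20 ± 15.3 and −1.52 ± 16.1. Classed by the length of the BIX01294 LAD instead, the net share of edges further out in WT was 1.27 percentage points ± 6.28 for 100 to 250 kb, −15.9 ± 7.89 for 250 to 500 kb, −15.9 ± 9.63 for 500 to 1000 kb and −11.0 ± 9.68 for 1 Mb or more. The shortest class therefore had an outward excess with BIX01294 only when classed by the WT LAD. In the treated list of pup 1.8 the 4 classes of WT LADs gave 2.32, −4.41, −7.78 and −2.51 percentage points, and in pup x17 they gave 19.02, 15.2, 9.79 and 11.8.

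LADs found once in each of the 5 lists numbered 566, which gave 1132 edges. Both BIX01294 lists lay outside all 3 WT lists at 147 edges (13.0%) and inside them at 35 (3.09%). Most were small differences, and the gap between the groups exceeded 25 kb at 21 outward and 2 inward edges, or at 43 and 7 without WT pup 1.5. The outward share was 12.9%, 12.9%, 13.2% and 13.1% for WT LADs of 100 to 250 kb, 250 to 500 kb, 500 to 1000 kb and 1 Mb or more, and it was 19.96%, 19.3%, 14.8% and 18.3% in these classes without WT pup 1.5. Without WT pup 1.5, 261 of 1404 edges lay outward (18.6%) and 138 inward (9.83%). The edges within a list are not independent of each other, and these counts were not tested.

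The edge furthest outward was the left edge of a LAD on chromosome 13, with a median length of 288 kb in WT. It lay at 21578972, 21500787 and 21509125 in WT pups 1.5, 1.8 and x17 and at 21375119 and 21361670 in BIX01294 pups 1.8 and x17 (mm9), which left 126 kb between the groups. The left edge of a LAD on chromosome 16 followed, at 42912902 to 42928571 in WT and at 42787551 and 42791751 with BIX01294, 121 kb apart. A left edge on chromosome 19 lay at 39031419 to 39058870 in WT and at 38918267 and 38924060 with BIX01294, 107 kb apart. Positions within each group differed by 4.2 to 78.2 kb at these 3 edges, less than the distance between the groups.

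The edge furthest inward was the left edge of a LAD on chromosome 2, at 151823441 to 151826169 in WT and at 151938878 and 151944296 with BIX01294, which left 113 kb between the groups. A right edge on the same chromosome lay at 73610557 to 73696511 in WT and at 73553647 and 73547853 with BIX01294, 56.9 kb apart. The third was a right edge on chromosome 8, where only 21.0 kb lay between the groups. Positions of the first edge differed by 2.73 kb within WT and by 5.42 kb within BIX01294. The other two spread more within a group than between groups, by 86.0 kb within WT at the second and by 105 kb within BIX01294 at the third.

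Gained length was counted as bases inside a LAD in both BIX01294 lists and in no WT list, and lost length as bases inside a LAD in all 3 WT lists and in neither BIX01294 list. Gained length was 12.1 Mb in 534 segments (exact permutation test, one-sided p = 0.4, adjusted p = 0.6). Lost length was 2.97 Mb in 185 segments (exact permutation test, one-sided p = 0.9, adjusted p = 0.9). Both definitions are strict, since 1 list can remove a segment. Without WT pup 1.5 they gave 16.1 Mb gained and 7.52 Mb lost, which is also the length gained or lost in both same-pup pairs. Each definition is easier to meet with a list fewer. Gained length was then 41.5 Mb without WT pup 1.8, 26.5 Mb without WT pup x17, 48.8 Mb without BIX01294 pup 1.8 and 32.9 Mb without BIX01294 pup x17. Lost length was 5.90, 8.17, 9.58 and 21.6 Mb in the same order.

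Most of the gained segments extended LADs that were already there. Of the 534, 460 (86.1%) touched a LAD of a WT list on one side, 42 (7.87%) bridged a pair of them and 32 (5.99%) had no contact with one. By length these groups held 7.49 Mb, 1.51 Mb and 3.07 Mb, with median lengths of 5.95 kb, 29.5 kb and 106 kb. Segments of 100 kb or longer numbered 33 among the gained and 4 among the lost, and 42 and 19 without WT pup 1.5. Of the 185 lost segments, 154 lay at an edge of a BIX01294 LAD, 22 between a pair of them and 9 apart from them, with 1.76 Mb, 0.667 Mb and 0.542 Mb. Without WT pup 1.5 the lost segments numbered 424, with 365 at an edge, 35 between LADs and 24 apart from them, and the gained segments numbered 740.

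Gained segments that touched WT LADs were spread over all LAD lengths. Blocks covered by at least 1 WT list gained 1.75 kb per edge where they were 100 to 250 kb long, 2.56 kb at 250 to 500 kb, 2.83 kb at 500 to 1000 kb and 2.67 kb at 1 Mb or more. The deposited lists show that part of these changes lay near the calling limits. Of the gained length, 29.4% lay in a deposited interval of at least 1 WT list that fell short of the length minimum, and of the lost length, 27.9% lay in such an interval of at least 1 BIX01294 list.

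The longest gained segment was chr16:35103999-35360360 in mm9 (256 kb), which had no deposited interval in any WT list and was covered fully in both BIX01294 lists. It formed a LAD of its own of 256 kb in pup 1.8 and of 284 kb in pup x17, and the nearest WT LADs lay 180 kb away in pup 1.8 and 718 and 735 kb away in pups 1.5 and x17. The second was chr12:80052371-80230903 (179 kb), where deposited intervals covered 30.6%, 0% and 41.0% in WT pups 1.5, 1.8 and x17 and 80.9% and 81.8% in BIX01294 pups 1.8 and x17. The third was chr7:77793428-77950772 (157 kb), covered to 0%, 67.3% and 31.5% by deposited intervals in WT pups 1.5, 1.8 and x17 and fully with BIX01294. In the last 2 of these segments, some WT lists therefore had calls that did not reach the minimum LAD length. LADs of the DZNep lists of pups 1.8 and x17 covered 0% and 0% of the segment on chromosome 16, 100% and 96.7% of that on chromosome 12 and 99.9% and 98.5% of that on chromosome 7. LADs of the TSA lists of these pups covered 97.2% and 39.8%, 0% and 0%, and 97.4% and 0% of the same segments.

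The longest lost segments were still called in part in treated cells. At chr6:148910012-149031481 (121 kb), deposited intervals covered 51.6% and 72.9% of the segment in BIX01294 pups 1.8 and x17 and at least 90.8% in the WT lists. At chr2:151826169-151938877 (113 kb), the place of the edge furthest inward, they covered 71.3% and 76.0% with BIX01294 and 83.5% to 100% in WT. At chr1:161855543-161962742 (107 kb) they covered 26.5% and 48.7% with BIX01294 and 86.1% to 100% in WT. The 3 WT blocks that were absent from both treated lists were the segments on chromosomes 6 and 1 and another at chr8:14716888-14818025 (101 kb), named here after its values were seen, where deposited intervals covered 0% and 67.9% with BIX01294 and 95.0% to 100% in WT. LADs of the TSA lists covered 0% of the lost segments on chromosomes 6, 2 and 1 in both pups. LADs of the DZNep lists of pups 1.8 and x17 covered 100% and 0% of that on chromosome 6, 0% and 78.4% of that on chromosome 2 and 0% and 100% of that on chromosome 1.

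**Figure D4:**
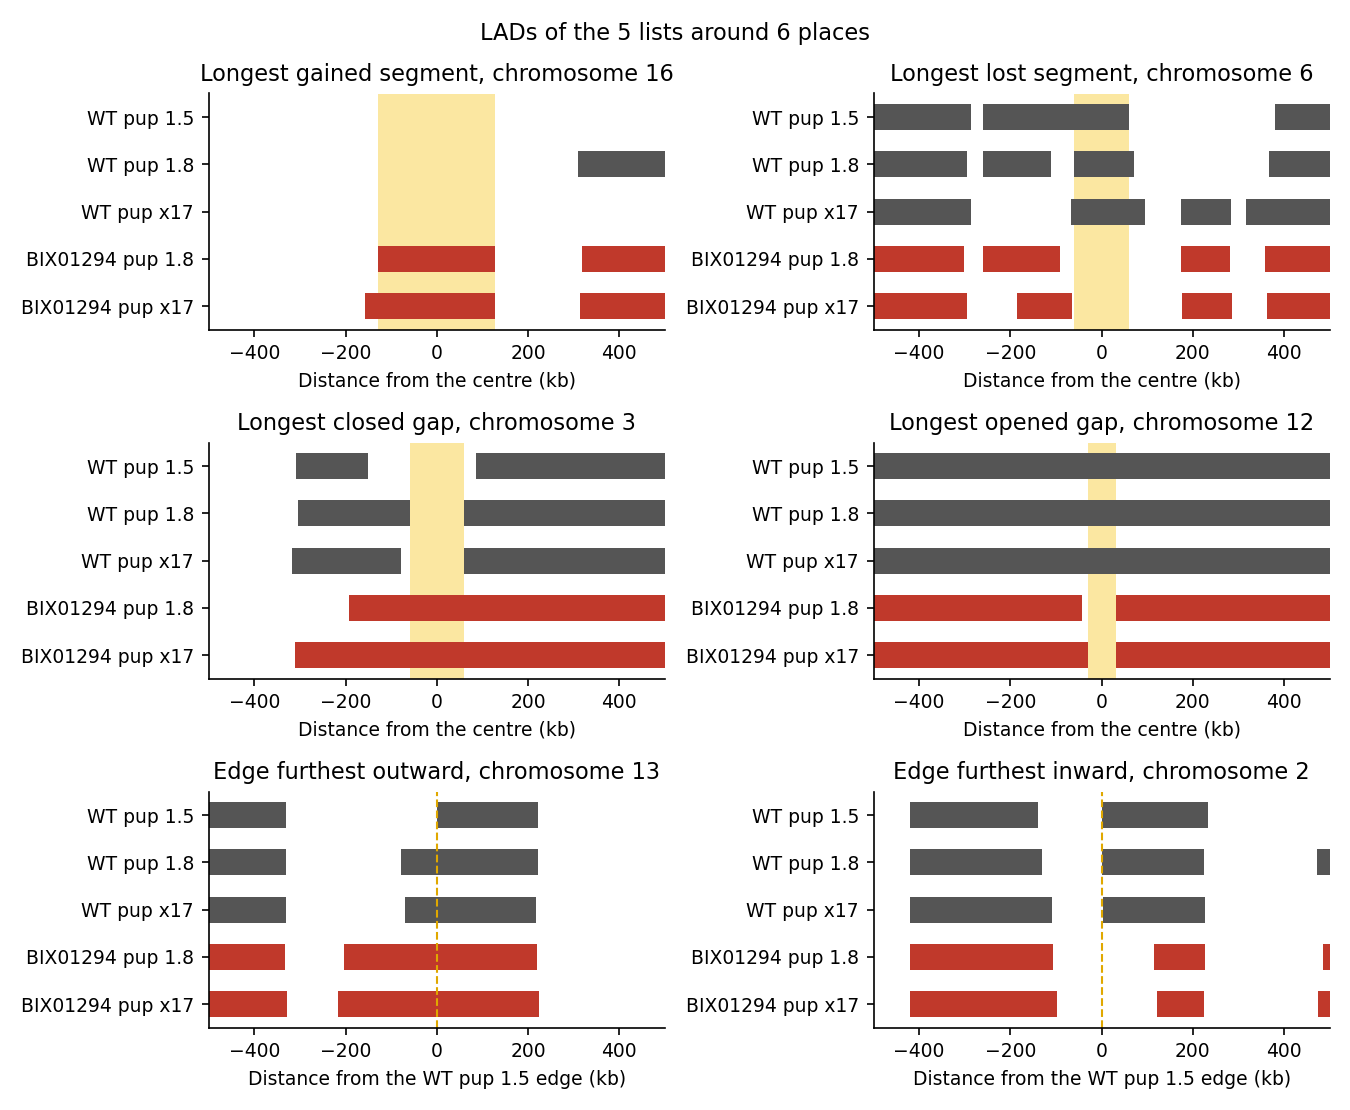
LADs of the 5 lists (grey bars for WT, red bars for BIX01294) within 500 kb of 6 places chosen as the most extreme of their kind, with distance along the chromosome in kb on the horizontal axis. Yellow bands mark the segment or gap and dashed lines the WT pup 1.5 edge. The gained segment on chromosome 16 (256 kb) lies in a LAD of its own, 190 and 185 kb from the next LAD in BIX01294 pups 1.8 and x17. The gap on chromosome 3 (118 kb) is bridged in both BIX01294 lists, and the edge on chromosome 13 lies 126 kb further out.

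Whole LADs that appeared in one list and not in another were mostly short. Of WT LADs of 100 to 250 kb, 13.1% ± 6.90 had no overlap with a LAD of a BIX01294 list, compared with 24.1% ± 13.9 between WT lists (SD over 6 pairs each). Of BIX01294 LADs of that class, 31.0% ± 11.6 had no overlap with a LAD of a WT list. For WT LADs of 250 to 500 kb the absent share was 1.73% ± 1.13, and no LAD of 1 Mb or more was absent in any pair of a WT with a BIX01294 list or of WT lists. In pup 1.8, 22.0% of 791 WT LADs of 100 to 250 kb were absent with BIX01294 and 13.1% of 756 treated LADs were absent in WT. In pup x17 the order was the opposite, with 7.48% of 789 and 36.6% of 804. The share of LADs that broke into pieces was higher in the longer classes. Of WT LADs of 1 Mb or more, 30.1% ± 8.10 overlapped at least 2 LADs of a BIX01294 list, compared with 16.9% ± 2.09 of those of 500 to 1000 kb and 6.97% ± 1.33 of those of 250 to 500 kb. Between WT lists these classes gave 32.5% ± 3.43, 19.4% ± 1.43 and 6.94% ± 1.79.

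The differences were spread over all chromosomes. The share of the chromosome in LADs was higher with BIX01294 than in WT by group means on 19 of 19 autosomes, from 1.66 percentage points on chromosome 7 to 3.92 on chromosome 15, with a median of 3.28. Leaving out WT pup 1.5, it was still higher on 19 of 19, but by less, from 0.612 on chromosome 7 to 2.67 on chromosome 10, with a median of 1.84 and with 2.21 on chromosome 15. On chromosome 15 the share was 51.5%, 58.0% and 55.3% in WT pups 1.5, 1.8 and x17 and 56.4% and 61.3% in BIX01294 pups 1.8 and x17. On chromosome 7 it was 62.6%, 67.5% and 64.0% in WT and 65.9% and 66.9% with BIX01294. The groups overlapped on both chromosomes. Both BIX01294 lists lay above all 3 WT lists on chromosomes 4 and 10 (10.5% of autosomes), and below them on 0 (0.00%). Without WT pup 1.5 the counts were the same 2 and 0, but they could not have changed. WT pup 1.8 was the highest WT list on every autosome, and BIX01294 pup x17 lay above WT pup x17 on every autosome. On chromosome 4 the shares were 55.9%, 61.4% and 59.3% in WT pups 1.5, 1.8 and x17 and 61.8% and 63.6% with BIX01294, and on chromosome 10 they were 56.7%, 61.0% and 59.2% in WT and 61.3% and 64.2% with BIX01294.

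Within pups the chromosomes moved together, in opposite directions. In pup x17 the share was higher with BIX01294 on 19 of 19 autosomes, by 2.86 to 6.29 percentage points. In pup 1.8 it was lower on 17 of 19, with differences from −3.39 percentage points on chromosome 18 to 0.367 on chromosome 4. Chromosomes of one list share its libraries and are not replicates. Chromosome 11, which is rich in genes, had the lowest share in all 5 lists, with 44.1%, 50.7% and 46.5% in WT and 49.8% and 51.2% with BIX01294. Gained length exceeded lost length on 18 of 19 autosomes. The exception was chromosome 9, with 0.298 Mb gained and 0.332 Mb lost, and chromosome 4 gained the most, 1.12 Mb. With WT pup 1.5 left out, chromosome 9 had 0.634 Mb gained and 0.498 Mb lost, and gained length was the larger on 19 of 19.

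**Figure D5:**
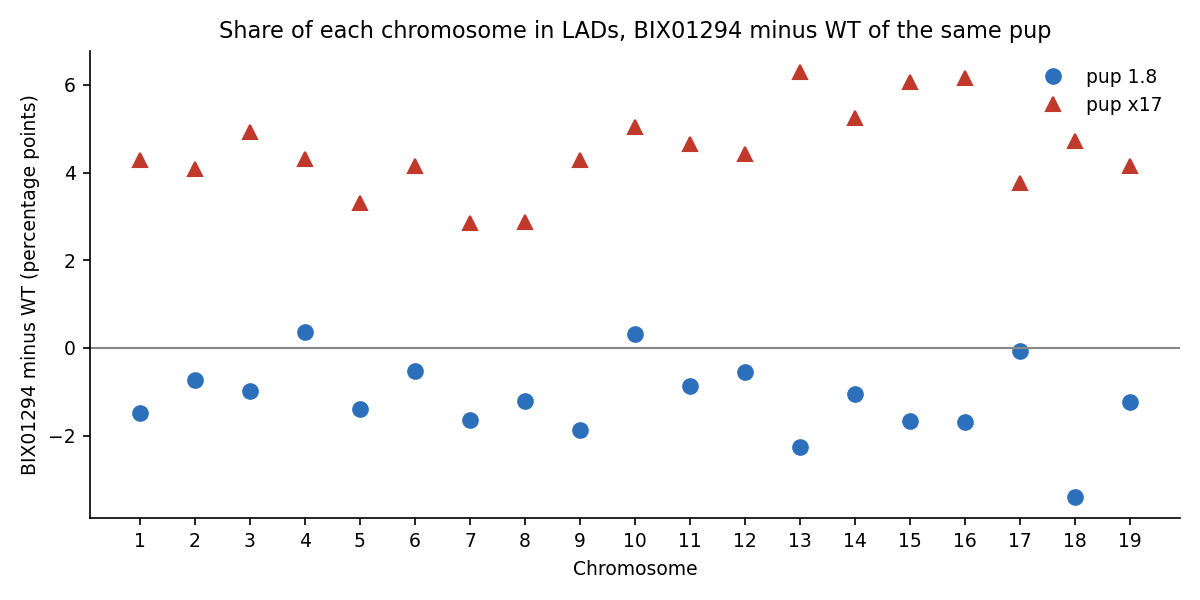
BIX01294 minus WT share of each autosome in LADs (vertical axis, percentage points) within pup 1.8 (circles) and pup x17 (triangles), by chromosome. Pup x17 lies above 0 on 19 of 19 chromosomes, and pup 1.8 lies below 0 on 17 of 19.

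For scale, the DZNep and TSA lists of the same 2 pups were set against the same WT lists, so these values share their controls with those above and were not tested against them. DZNep lowers histone methylation, and TSA inhibits histone deacetylases. Total LAD length differed from WT by 70.6 Mb with BIX01294, by 10.6 Mb with DZNep and by −109 Mb with TSA. The median gap differed by −27.1 kb, −13.2 kb and 56.1 kb, and net merging was 3.17, −2.58 and −10.4 percentage points. Gained length was 12.1, 6.69 and 11.8 Mb and lost length 2.97, 5.70 and 58.2 Mb. Several of these values rest on WT pup 1.5. With that list left out, total length differed by 40.2, −19.8 and −139 Mb and the median gap by −13.2, 0.706 and 69.97 kb, so both DZNep values changed sign. Net merging was then 2.41, −3.61 and −11.2 percentage points, gained length 16.1, 8.86 and 13.2 Mb and lost length 7.52, 14.3 and 85.3 Mb. Within pups 1.8 and x17, total length differed by −26.5 and 107 Mb with BIX01294, by −67.6 and 28.1 Mb with DZNep and by −151 and −127 Mb with TSA. The sign was thus mixed between the pups with BIX01294 and DZNep and the same in both pups with TSA.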

How the data were processed

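The authors deposited 1 LAD list per DamID library pair, with interval start and end as the only values (unit: other, base positions counted from 0) and no score. The lists were taken to come from LADetector segmentation of the ratio of experiment over control reads. The source for this is the methods of a paper that cites the series among other datasets. Each library pair had its own list, so replicates were not pooled. The labels name mm9, and the aligner is not given in the sources used here. Chromosome 1 intervals run to 197195301. The lists held gaps under 25 kb and intervals under 100 kb, so intervals less than 25 kb apart were joined and those longer than 100 kb kept, on chromosomes 1 to 19. Starts were converted to count from 1. Depth is unknown, so no value could be weighted by it.

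Lists were grouped by the labels. Pairing of pups 1.8 and x17 rests on the shared pup name. Each was the most similar pair of its WT list (Jaccard 0.892 and 0.882). Groups were compared by exact permutation over 10 arrangements, two-sided for differences and one-sided for gained and lost length, with Benjamini-Hochberg adjustment over 9 results. The lists, measures and named places were chosen with earlier results of these data known. Named places are the 3 longest gained and lost segments, the 3 longest closed and opened gaps, the 3 edges furthest outward and inward where the groups did not overlap, and the chromosomes with the highest and lowest difference.

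Scripts ran under Python 3.11.15, numpy 2.4.6 and matplotlib 3.10.9. The interval code was tested on simulated data, and 200 random sets compared with counting each base showed 0 mismatches. In copies of the WT pup 1.8 list, 107 of 107 planted closures were found, and 157 of 167 edges moved out by 60 kb were found more than 25 kb outward. Alternatives were the lists as deposited, other length minimums (200 and 500 kb) and joining distances (50 kb), the X chromosome added, each list left out, the same-pup pairs as a block, and other limits for gaps, edges and segments. The DZNep and TSA lists served only for values set side by side. The shAC lists and the signal tracks were not used here.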

Additional observations from a re-analysis of the deposited data

Results flagged for a closer look

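The 4 results below were picked out because the difference between BIX01294 and WT had opposite signs in the 2 pups. Each pup gives 1 pair of lists, so the difference between the pups was not tested. The 2 pups also carry different replicate labels, so pup and replicate cannot be told apart. The number of LADs was lower by 33 in pup 1.8 (a difference of −33) and higher by 123 in pup x17. Total LAD length differed by −26.5 Mb in pup 1.8 and by 107 Mb in pup x17. Net merging of neighbouring LADs was −2.67 percentage points in pup 1.8 and 7.77 percentage points in pup x17. Net edge growth was −2.37 percentage points in pup 1.8 and 15.1 percentage points in pup x17. The 4 measures come from the same lists and are not independent. WT pup 1.8 was the longest of the WT lists (1507 Mb) and WT pup x17 was shorter (1429 Mb), and the treated lists of these pups had 1481 and 1536 Mb. The part of the read depth in these differences was not tested, since the lists hold none.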

How the results depend on the processing

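The smallest exact permutation p among the 9 results was 0.2, where the design allows 0.1. Of 109 alternative values, 59 kept the sign and stayed within a ratio of 1.5 of the value reported. Another 42 kept the sign but moved beyond that ratio, and 8 changed sign. The cause of the shifts was not tested. With the lists as deposited the differences were 1032 in interval number, −9.13 kb in median length (reversed), −5.60 percentage points in the share in LADs of 1 Mb or more, −8.80 kb in median gap and 4.60 percentage points in net edge growth. A minimum length of 200 kb gave 85.7 LADs, 15.7 kb in median length and 1.97 percentage points of net merging. A minimum of 500 kb gave 76.8 LADs, −44.5 kb in median length (reversed, exact permutation p = 0.1), −182 kb in median gap and −1.29 percentage points of net merging (reversed). Joining under 50 kb gave 61.3 LADs, 14.7 kb in median length, 0.451 percentage points in the share in LADs of 1 Mb or more (reversed) and 5.77 percentage points of net merging. Counting only edge shifts over 100 kb gave 3.44 percentage points. Bases in both BIX01294 lists and at most 1 WT list came to 59.9 Mb, and bases in at least 2 WT lists and no BIX01294 list to 15.6 Mb.

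The replicate block of same-pup pairs gave 45 LADs, 40.2 Mb in total length, 22.9 kb in median length, −13.2 kb in median gap and 7.52 Mb lost, and it left the direction of every result as it was. Leaving out each of the 5 lists in turn gave ranges of 45 to 214 LADs, 40.2 to 105 Mb in total length, −5.02 to 22.9 kb in median length, −3.26 to 0.171 percentage points in the share in LADs of 1 Mb or more, −36.4 to −13.2 kb in median gap, −0.171 to 6.52 percentage points of net merging, 6.12 to 14.0 percentage points of net edge growth, 16.1 to 48.8 Mb gained and 5.90 to 21.6 Mb lost. The median length turned negative without WT pup x17 or BIX01294 pup 1.8, the share in LADs of 1 Mb or more turned positive without BIX01294 pup 1.8, and net merging turned negative without BIX01294 pup x17. The values without WT pup 1.5 given for shared gaps, blocks, edges, length classes, chromosomes and the other drugs were chosen after seeing the data. Those of DZNep that changed sign were −19.8 Mb in total length, 0.706 kb in median gap and −3.19 percentage points of net edge growth. Adding the X chromosome changed no direction. With no scores or read numbers in the lists, calls near the limit cannot be told from strong ones.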
